A study of Mus musculus with 96 samples.

Results

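The genes described here code mostly for the core of the splicing machinery and for its main families of regulators. They were chosen by symbol from the expression table of single EL4 cells: the SR protein genes (Srsf), the Sm and other snRNP protein genes (Snrp), the SF3a and SF3b subunits (Sf3), the hnRNP genes (Hnrnp), the pre-mRNA processing factors (Prpf), the U2 auxiliary factor genes (U2af) and the LSm protein genes (Lsm), with a value above 0 in at least 5 cells. Of the 24057 genes listed, 81 symbols matched and 79 were members, made up of 10 Srsf, 11 Snrp, 9 Sf3, 20 Hnrnp, 13 Prpf, 3 U2af and 13 Lsm genes. The other 2, Snrpn and Srsf12, were listed at 0 in every cell. As the choice was by symbol, the Lsm class also holds genes with other roles, such as Lsm1, Lsm10 and Lsm11.

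The spliceosome removes introns from pre-mRNA and is built from small nuclear RNAs in complex with proteins. A ring of Sm proteins surrounds most of these RNAs, and a related ring of LSm proteins is held by the U6 RNA. SF3b and the U2 auxiliary factor take part in choosing the branch point and the 3′ splice site, whereas Prp8 and the Prp19 complex act in the catalytic core. SR and hnRNP proteins bind exons and introns and shift the choice of splice sites, and in T cells they act on transcripts such as that of CD45.

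EL4 is a mouse T-lymphoma line from a C57BL/6 N mouse (C57BL/6 in the labels). Its cells had been infected with retroviral particles carrying an shRNA, either against luciferase (shLuc, the WT cells) or against CTCF (shCTCF, the CTCF-KD cells), and GFP-positive cells were captured on the Fluidigm C1 system. The 96 cells came from 4 cultures of 24 cells, WT1 and CTCFKD1 in experiment 1 and WT2 and CTCFKD2 in experiment 2, and each culture was captured on its own circuit, so culture and circuit cannot be told apart. All cultures, the controls included, carried a virus and a hairpin, and the knockdown was designed to reduce CTCF, not to delete it. The methods list 2 hairpins against CTCF, and which of them each CTCF-KD culture carried is not given in the sources used here, so a difference between hairpins and one between experiments cannot be told apart. Transcript levels are in TPM (length-adjusted read shares, scaled to the same total in every cell), and 95 cells with at least 3000 genes detected were kept: 24, 23, 24 and 24 in WT1, WT2, CTCFKD1 and CTCFKD2. A culture's level is the mean over its cells, given with the SD over cells, and the culture was the replicate, with 2 per condition.

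The kept cells had a median of 247586, 230477, 234260 and 131098 reads in WT1, WT2, CTCFKD1 and CTCFKD2, as recovered from the TPM values. Per cell, a median of 4771 and 4635 genes was detected in the WT cultures and 6172.5 and 5656 in the CTCF-KD cultures, so more genes were detected after knockdown in both experiments, although CTCFKD2 had the fewest reads. All 9 T cell markers in the table were detected, at a summed mean of 8212 and 8491 TPM per cell in WT1 and WT2 (3003 to 17928 in single cells) and of 6074 and 6087 TPM in CTCFKD1 and CTCFKD2 (524 to 11511). Of the defining markers of other cell types, 4 of 5 for B cells, 3 of 5 for macrophages, 2 of 3 for erythroid cells and 1 of 4 for fibroblasts were at 0 in every kept cell, and the remaining ones summed to at most 52 TPM per cell on average in any culture. In single cells the macrophage sum reached 529 TPM in WT1 and the fibroblast sum 195 TPM in WT2. The part of these markers in the results was not tested. Ctcf, the targeted gene, was at 60.3 ± 76.8 TPM in WT1 and 16 ± 27.4 in CTCFKD1, and at 37.1 ± 45.5 in WT2 and 44.9 ± 50 in CTCFKD2. The RNA of Ctcf in the captured cells was lower in experiment 1 and not lower in the culture labelled CTCFKD2. For both knockdowns the study reported reduced CTCF in sorted populations, in RNA by RT-qPCR and in protein by Western blotting. Those measurements were not analysed here. Values are therefore given for each culture, and the main counts and medians also without CTCFKD2.

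The summed levels of the Snrp and Lsm classes were higher in both CTCF-KD cultures than in both WT cultures. On their own, 6 of 11 Snrp and 5 of 13 Lsm genes were, beside 19.9% of all genes tested. The part of single genes in the sums was not tested. The level of Sf3b1 was lower in both CTCF-KD cultures. The sums of the Srsf, Hnrnp and Prpf classes were ordered by experiment more than by knockdown, and no gene passed the test. The median log2 change of the 79 genes, CTCF-KD minus WT on log2(mean TPM + 1), was 0.29, and that of all 11980 genes tested was 0.04. In experiment 1 it was 0.36 and in experiment 2 it was 0.18. By class, the median was 0.67 for Snrp, 0.38 for Sf3, 0.38 for Lsm, 0.28 for Hnrnp, 0.26 for U2af, 0.21 for Prpf and 0.12 for Srsf. In all, 63 of the 79 genes were higher and 16 lower, against 52.1% of all genes higher.

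None of the 79 genes passed the threshold of an adjusted p of 0.05 in limma, and neither did any of the 11980 genes tested (0%). The smallest adjusted p among the 79 was 0.585 (limma, 2 cultures against 2). At an unadjusted p under 0.05, 7 genes were higher, beside 4.79% of all genes tested, and 1 gene was lower, beside 2.82%. With the experiment as a replicate block, which pairs the cultures by number, 16 were higher (7.66% of all genes), and where log2(TPM + 1) was averaged over the cells of a culture, here called the cell-averaged log2 scale, 21 were (15.1%), both without a call among the 79. With 2 cultures per condition the levels below are therefore descriptions of separation between cultures, and none is a call.

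In 25 of the 79 genes (31.6%), the means of both CTCF-KD cultures exceeded those of both WT cultures, and this held for 19.9% of all genes tested. Both lay below in 4 (5.06%), beside 16.9% of all genes. The 25 were 6 of 11 Snrp, 5 of 13 Lsm, 5 of 13 Prpf, 3 of 10 Srsf, 3 of 20 Hnrnp, 2 of 9 Sf3 and 1 of 3 U2af genes. The 4 below were Sf3b1, Srsf5, Hnrnph3 and Hnrnpul1, the last of which was named after its values had been seen and changed by -0.35, or by 0.20 where log2(TPM + 1) was averaged over cells. Compared within experiments, 45 genes (57%) were higher in CTCF-KD cells in both experiments, beside 30.1% of all genes, 11 (13.9%) were lower in both, beside 26.7%, and 23 went in opposite directions or did not change in one. Without the culture labelled CTCFKD2, the median change of the 79 genes was 0.16, with -0.05 for all genes, 36 of 79 lay above both WT cultures (31.3% of all genes) and 11 below (32.3%), and 2 genes were higher and 0 lower at an unadjusted p under 0.05.

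**Figure D1:**
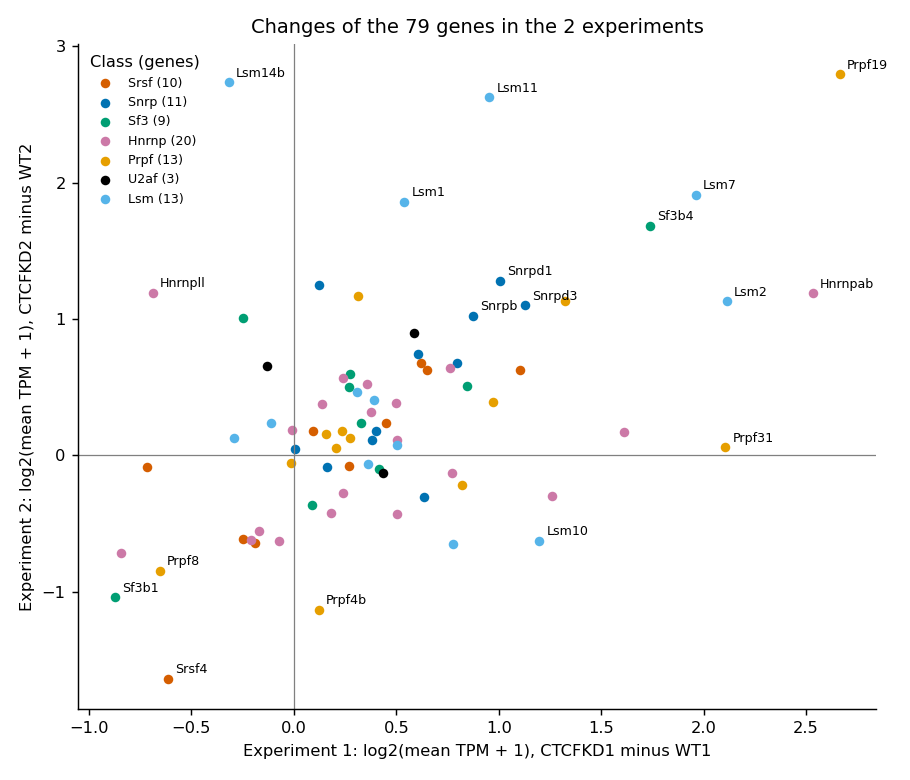
Each point is 1 of the 79 genes, coloured by class, with its change in experiment 1 (CTCFKD1 minus WT1) on the x axis and in experiment 2 (CTCFKD2 minus WT2) on the y axis, both as a difference of log2(mean TPM + 1). The upper right part holds 45 genes, among them Snrpd3, Snrpb, Snrpd1, Lsm2, Lsm7 and Prpf19, and the lower left part holds 11, among them Sf3b1.

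Upstream sequences are shown for some of the members whose levels separated the cultures. They can be read side by side for genes that changed in the same direction. They lie directly before the RefSeq start site, are printed 5′ to 3′ on the strand of the gene, and hold no base of the annotated gene (RefSeq, GRCm38.p6). Capitals mark the palindrome CACGTG, the E-box bound by Myc and related factors. The first 5 genes were higher in both CTCF-KD cultures and Sf3b1 was lower in both. No rule picked them among the separated members, so the stretches are examples only. CACGTG is in that of Snrpa alone, and Snrpa is not among the genes named by rule.
Lsm2: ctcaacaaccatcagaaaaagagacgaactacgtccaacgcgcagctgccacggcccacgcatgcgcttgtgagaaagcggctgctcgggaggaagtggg
Lsm7: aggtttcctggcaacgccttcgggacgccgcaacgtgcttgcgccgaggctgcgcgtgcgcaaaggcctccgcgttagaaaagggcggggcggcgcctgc
Prpf19: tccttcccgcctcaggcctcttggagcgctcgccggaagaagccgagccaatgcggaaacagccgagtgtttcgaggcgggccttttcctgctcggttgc
Hnrnpab: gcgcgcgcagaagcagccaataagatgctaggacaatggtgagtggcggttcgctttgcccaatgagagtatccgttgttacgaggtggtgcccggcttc
Snrpa: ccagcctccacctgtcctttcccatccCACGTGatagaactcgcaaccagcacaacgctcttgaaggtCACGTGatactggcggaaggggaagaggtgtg
Sf3b1: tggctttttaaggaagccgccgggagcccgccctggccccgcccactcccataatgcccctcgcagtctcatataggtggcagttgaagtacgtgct

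These stretches lie at chr17:34981754-34981853 (Lsm2, plus strand), chr10:80855210-80855309 (Lsm7, minus), chr19:10895131-10895230 (Prpf19, plus), chr11:51606882-51606981 (Hnrnpab, minus), chr7:27196272-27196371 (Snrpa, minus) and chr1:55027482-55027578 (Sf3b1, minus, 97 bases after 3 bases inside the annotated gene were left out). Their GC content was 70% for Lsm7, 64% for Prpf19, 60.8% for Sf3b1, 59% for Lsm2 and 57% for Hnrnpab and Snrpa. Of the 79 genes, 67 had 1 or more promoter windows of 300 bases (250 before and 50 after the start). A gene was counted if any of its windows held the motif, and some genes had several windows. The part of the number of windows was not tested. CACGTG, which is the same on both strands, was found for 9 of the 67 genes (13.4%), beside 8.09% of the 27025 genes with a window. The 9 were 5 of 18 Hnrnp, 3 of 11 Prpf and 1 of 9 Snrp genes, and none of the 10 Srsf, 10 Lsm, 7 Sf3 and 2 U2af genes with a window held it. Among the 21 genes with a window that lay above in both CTCF-KD cultures, 3 held it (14.3%). The letters AGGGGGC on either strand, which form the core of the CTCF motif, were found for 10 of the 67 genes (14.9%), beside 11.9% of all, and for none of the 9 Snrp genes with a window. The motifs can overlap by at most 1 base, and a match is a description of the sequence only.

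The Sm proteins form the ring on the small nuclear RNAs, and their 7 core genes summed to 2416 ± 844 TPM per cell in WT1 and 2446 ± 943 in WT2 and to 3798 ± 785 in CTCFKD1 and 3840 ± 854 in CTCFKD2, with no test on the sum. The 2 WT cultures were almost level with each other, and so were the 2 CTCF-KD cultures. Snrpd3, which codes for SmD3, was at 295 ± 260 TPM in WT1, 286 ± 261 in WT2, 645 ± 272 in CTCFKD1 and 616 ± 327 in CTCFKD2. Its log2 change was 1.12 ± 0.28 (SE), with 1.13 in experiment 1 and 1.10 in experiment 2, the highest limma statistic of the 79 genes (adjusted p = 0.585). Snrpb, which codes for SmB, was at 538 ± 450, 496 ± 514, 987 ± 463 and 1009 ± 529 TPM in WT1, WT2, CTCFKD1 and CTCFKD2, a log2 change of 0.95 ± 0.28. In single WT cells Snrpb ran from 0 to 1781 TPM, and 1 WT1 cell and 3 WT2 cells had none, whereas the lowest CTCF-KD cell held 107 TPM. The cultures did not overlap in mean level for either gene, while single cells did.

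Snrpd1, which codes for SmD1, was at 159 ± 95 and 283 ± 240 TPM in WT and 320 ± 135 and 690 ± 835 TPM in CTCF-KD cells, a log2 change of 1.14 ± 0.48. It was lower in experiment 1 than in experiment 2 in both conditions and higher with the knockdown within each. Snrpg, for SmG, was at 342 ± 165 and 179 ± 113 TPM in WT1 and WT2 and at 521 ± 243 and 301 ± 193 TPM in CTCFKD1 and CTCFKD2, so CTCFKD2 lay below WT1 although the change was 0.61 and 0.74 within the experiments. Snrpe, for SmE, was almost flat, at 487 ± 205, 632 ± 304, 545 ± 212 and 594 ± 335 TPM (0.04 ± 0.30). Snrpf also lay above in both CTCF-KD cultures, but 85.4% of its exonic bases overlap other annotated genes, so its level is uncertain. Across the Sm ring the log2 changes thus ran from 0.04 for Snrpe to 1.14 for Snrpd1, and that of Snrpe was -0.10 on the cell-averaged log2 scale.

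Snrpa1, for the U2 snRNP protein A′, was at 164 ± 133 and 245 ± 195 TPM in WT and 286 ± 170 and 391 ± 227 TPM in CTCF-KD cells, a log2 change of 0.74 ± 0.36. Snrpa lay above both WT cultures as well, mostly through experiment 2 (0.12 in experiment 1 and 1.25 in experiment 2), and 11% of its exonic bases overlap another annotated gene. None of the 11 Snrp genes lay below in both cultures, and 9 were higher within both experiments. The summed level of the class was 2884 ± 959 and 2973 ± 1026 TPM in WT1 and WT2 and 4439 ± 898 and 4640 ± 888 TPM in CTCFKD1 and CTCFKD2, the class whose cultures lay furthest apart by condition in the plot of class sums.

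**Figure D2:**
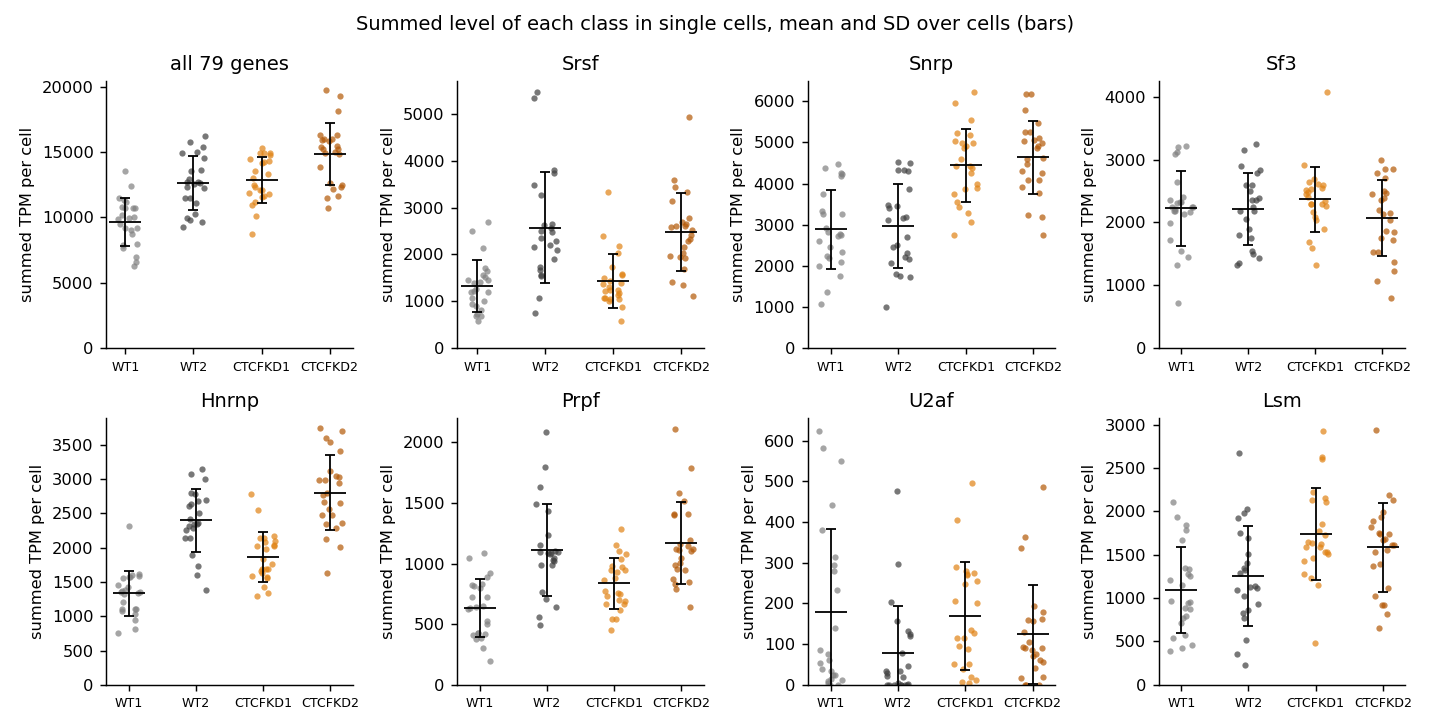
Each panel gives the summed TPM per cell of all 79 genes or of one class (y axis, from 0) for the cells of the 4 cultures (x axis), with points for cells and black bars for the mean and SD over cells. The Snrp sum is higher in both CTCF-KD cultures, near 4439 and 4640 TPM against 2884 and 2973. In contrast, the Srsf, Hnrnp and Prpf sums are higher in the 2 cultures of experiment 2.

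LSm proteins are relatives of the Sm proteins. Lsm2 to Lsm8 form the ring on U6, and Lsm1 takes the place of Lsm8 in the ring that acts in mRNA decay in the cytoplasm. Lsm7 was at 25.1 ± 37.5 and 50.2 ± 82.2 TPM in WT1 and WT2 and at 101 ± 70.4 and 192 ± 483 TPM in CTCFKD1 and CTCFKD2, a log2 change of 1.94 ± 0.54. One CTCFKD2 cell reached 2442 TPM, and the median over cells was 109 in CTCFKD1 and 92.1 in CTCFKD2 against 6.15 and 0 in the WT cultures. Lsm2 was at 30.9 ± 58.3, 51.9 ± 107, 137 ± 102 and 115 ± 122 TPM in WT1, WT2, CTCFKD1 and CTCFKD2, a log2 change of 1.62 ± 0.45. For both genes the CTCF-KD cultures lay above the WT cultures in each experiment.

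Lsm1 was at 44.3 ± 72.5 and 24.2 ± 40 TPM in WT cells and 64.8 ± 57.2 and 90.5 ± 161 TPM in CTCF-KD cells (1.20 ± 0.51), with a larger difference in experiment 2 (1.86) than in experiment 1 (0.54). Lsm3, the most abundant of the class, was at 428 ± 338 and 389 ± 325 TPM in WT and 563 ± 277 and 515 ± 265 TPM in CTCF-KD cells, a log2 change of 0.40 ± 0.29. Over Lsm1 to Lsm8 the summed level was 819 ± 486 and 876 ± 543 TPM in WT1 and WT2 and 1265 ± 439 and 1267 ± 520 TPM in CTCFKD1 and CTCFKD2. All 8 were higher in the mean change, and 6 of the 8 within both experiments.

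Lsm10 and Lsm11 belong to the U7 snRNP, which processes histone pre-mRNA. Lsm11 rested on 75, 1, 126 and 67 reads in WT1, WT2, CTCFKD1 and CTCFKD2, so its change has little weight. Lsm10 went in opposite directions, from 153 ± 197 to 353 ± 344 TPM in experiment 1 and from 261 ± 307 to 169 ± 199 TPM in experiment 2. The change of this U7-specific gene thus depended on the experiment.

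Prpf19 codes for the scaffold of the Prp19 complex, a ubiquitin ligase of the active spliceosome. Its measured level was low in WT cells, at 0.515 ± 1.60 TPM in WT1 and 0.490 ± 1.65 in WT2. It reached 8.61 ± 10.3 TPM in CTCFKD1 and 9.35 ± 18.4 in CTCFKD2. It was found in 3 of 24 and 2 of 23 WT cells and in 18 of 24 and 9 of 24 CTCF-KD cells, from 11, 8, 183 and 103 reads. The log2 change was 2.73 ± 0.78, the largest of the 79, with 2.66 in experiment 1 and 2.80 in experiment 2. At this depth a cell without a read cannot be told from a cell with a low level.

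Prpf31, a protein of the U4/U6 snRNP, was at 29.6 ± 71.1 and 94.8 ± 187 TPM in WT cells and at 131 ± 164 and 98.8 ± 100 TPM in CTCF-KD cells, so that almost all of its difference came from experiment 1 (2.10 against 0.06), and 18.1% of its exonic bases overlap another annotated gene. Prpf8, the largest protein of the catalytic core, was at 74.1 ± 96.1 and 143 ± 157 TPM in WT and 46.7 ± 47.5 and 79 ± 75.2 TPM in CTCF-KD cells, a log2 change of -0.75 ± 0.50. CTCFKD2 lay above WT1, and Prpf8 was found in 19 of 24 and 22 of 23 WT cells and in 24 of 24 and 23 of 24 CTCF-KD cells. On the cell-averaged log2 scale the sign of its change turned (0.15). Prpf38b, an abundant member of the class, changed by -0.04 ± 0.35. The kinase gene Prpf4b changed by 0.12 in experiment 1 and -1.13 in experiment 2, and Prpf18, a factor of the second catalytic step, by 0.82 and -0.22. The class sum was 633 ± 239 and 837 ± 213 TPM in WT1 and CTCFKD1 and 1114 ± 381 and 1171 ± 338 TPM in WT2 and CTCFKD2.

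**Figure D3:**
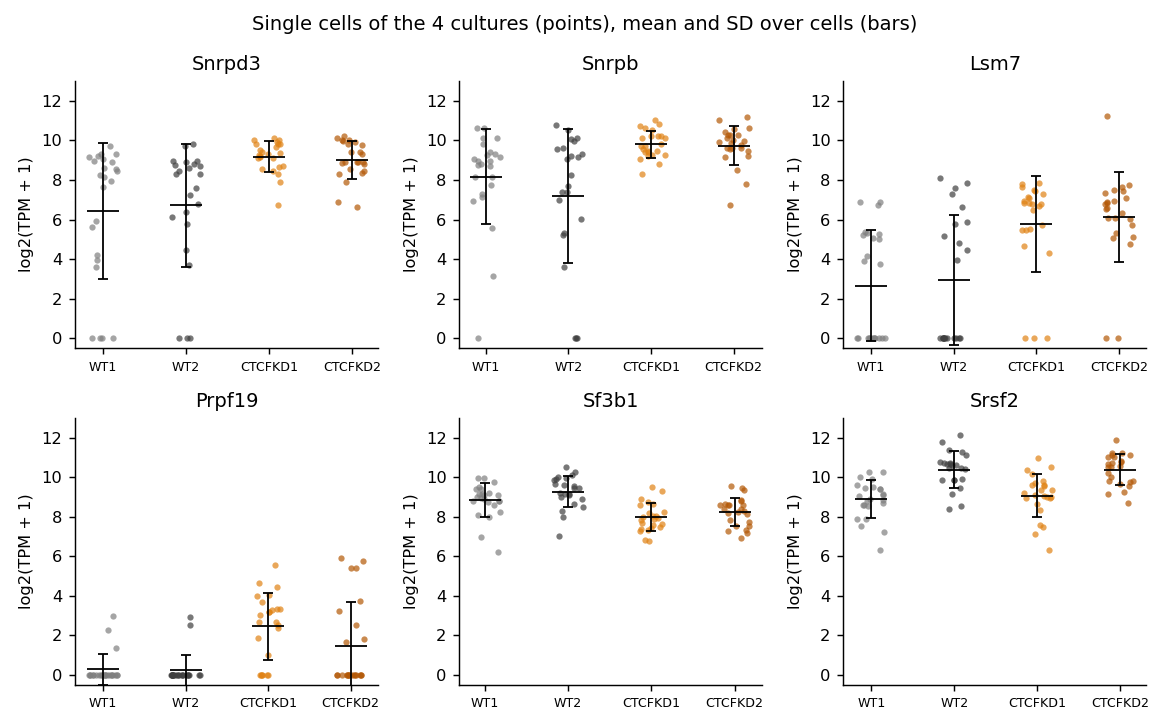
Each point is a cell, with log2(TPM + 1) on the y axis and the 4 cultures on the x axis, for 6 genes, and black bars give the mean and SD over the cells. Snrpd3, Snrpb and Lsm7 have WT cells at 0 that are fewer or absent in the CTCF-KD cultures, Prpf19 is at 0 in most WT cells, Sf3b1 lies lower in both CTCF-KD cultures, and Srsf2 differs by experiment.

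SF3b is the part of the U2 snRNP that holds the branch point, and Sf3b1 codes for its largest subunit. Sf3b1 was at 515 ± 231 TPM in WT1 and 699 ± 327 in WT2, and at 280 ± 154 in CTCFKD1 and 340 ± 170 in CTCFKD2. It was detected in every kept cell, from 10124, 10756, 5226 and 3466 reads, and lay lower in both CTCF-KD cultures by 0.96 ± 0.32 on the log2 scale (-0.87 in experiment 1, -1.04 in experiment 2). No exonic base of Sf3b1 (chr1:54985169-55027481) overlapped another annotated gene. It had the lowest limma statistic of the 79 genes, at an adjusted p of 0.610, and was the 1 gene that was lower at an unadjusted p under 0.05.

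The changes of the other SF3b genes ran from -0.14 ± 0.30 for Sf3b2 to 1.71 ± 0.63 for Sf3b4. Sf3b4 was at 18.4 ± 24 and 10.7 ± 12.5 TPM in WT and 63.5 ± 32.8 and 36.5 ± 34.2 TPM in CTCF-KD cells, so that its cultures did not overlap. Sf3b5, the most abundant of the class, was at 929 ± 526 and 445 ± 302 TPM in WT1 and WT2 and at 1118 ± 457 and 631 ± 414 TPM in CTCFKD1 and CTCFKD2, higher within each experiment and ordered by experiment across them. The class sum was 2223 ± 599, 2218 ± 573, 2366 ± 521 and 2066 ± 605 TPM in WT1, WT2, CTCFKD1 and CTCFKD2. Subunits of one complex thus had changes of opposite sign, while the class sum differed between cultures by less than the SD over cells.

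U2af1 and U2af2 code for the small and large subunits of the factor that reads the 3′ splice site. Both were sparse, with 22, 23, 33 and 29 reads for U2af1 and 23, 15, 37 and 8 reads for U2af2 in WT1, WT2, CTCFKD1 and CTCFKD2. U2af1 was at 6.68 ± 10.7 and 10.3 ± 28 TPM in WT and 10.5 ± 17.2 and 20.1 ± 28.4 TPM in CTCF-KD cells. The means of WT2 and CTCFKD1 were nearly the same, so the gap between the conditions was small beside the spread. U2af1l4, the most abundant of the 3, shared 66.1% of its exonic bases with other annotated genes. How reads on such bases were counted is not given in the sources used here, so its level is uncertain.

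SR proteins bind exonic enhancers and promote splicing at nearby sites. Srsf2, the most abundant of all 79 genes, was at 558 ± 311 TPM in WT1 and 674 ± 442 in CTCFKD1, and at 1598 ± 983 in WT2 and 1515 ± 778 in CTCFKD2. The 2 cultures of experiment 2 lay above the 2 of experiment 1, and the log2 change with the knockdown was 0.10 ± 0.60. Another annotated gene overlaps 25.3% of its exonic bases. The summed level of the class followed the same order, at 1324 ± 547 and 1437 ± 578 TPM in WT1 and CTCFKD1 and 2572 ± 1178 and 2479 ± 825 TPM in WT2 and CTCFKD2. In the class sum, of which Srsf2 was the largest part, differences between the experiments thus exceeded those with the knockdown.

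Srsf7 lay above in both CTCF-KD cultures (148 ± 163, 224 ± 155, 228 ± 104 and 360 ± 206 TPM in WT1, WT2, CTCFKD1 and CTCFKD2), with WT2 and CTCFKD1 almost equal. Srsf5 lay below in both, at 233 ± 107 and 286 ± 207 TPM in WT and 197 ± 98.5 and 187 ± 162 TPM in CTCF-KD cells (-0.43 ± 0.32). Srsf3 changed by -0.42 ± 0.49 and Srsf4 by -1.13 ± 0.87, and the sign of Srsf4 turned on the cell-averaged log2 scale (0.13). Of the exonic bases of Srsf4, 43% overlap another annotated gene. Srsf1, a founding member of the family, was listed above 0 in 8 cells from 13 reads in all, with 0 of 23 cells in WT2, which allows a share of up to 13%, so no change is given for it.

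The hnRNP proteins bind nascent RNA and often oppose SR proteins at splice sites. Hnrnpab was at 33.5 ± 44.9 and 105 ± 94.8 TPM in WT1 and WT2 and at 199 ± 122 and 240 ± 130 TPM in CTCFKD1 and CTCFKD2, a log2 change of 1.86 ± 0.57 with 2.53 in experiment 1 and 1.19 in experiment 2. Hnrnpm was at 76 ± 93.7, 145 ± 186, 235 ± 251 and 164 ± 133 TPM in the same order (0.89 ± 0.44), and its difference came mostly from experiment 1 (1.61 against 0.17). Of their exonic bases, 29.1% for Hnrnpab and 14.7% for Hnrnpm overlap another annotated gene. Hnrnph3 lay below in both CTCF-KD cultures, at 75.5 ± 89.4 and 54.7 ± 78 TPM against 41.6 ± 61 and 32.9 ± 68.9 TPM.

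Hnrnpa2b1, the most abundant of the class, was at 322 ± 174, 637 ± 284, 456 ± 155 and 830 ± 342 TPM in WT1, WT2, CTCFKD1 and CTCFKD2, higher within each experiment (0.50 and 0.38) and higher in experiment 2 than in experiment 1. Hnrnph1 also followed the experiment, at 154 ± 103 and 136 ± 97.7 TPM in experiment 1 and 419 ± 395 and 284 ± 186 TPM in experiment 2. The class sum was 1333 ± 327 and 1865 ± 360 TPM in WT1 and CTCFKD1 and 2399 ± 455 and 2804 ± 552 TPM in WT2 and CTCFKD2. Hnrnpll, which represses exons of CD45 in activated T cells, was found in at most 9 cells of any culture and changed by -0.69 in experiment 1 and 1.19 in experiment 2.

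Some members share long, near-identical stretches with transcripts of other annotated genes, and the authors kept uniquely mapped reads only. Such matches, of at least 95% identity over 300 or more bases, are called copies here and were found for 29 of the 79 genes. Genes that overlap a member at its own place were not left out, so a copy can be such an overlap. The 6 with 3 or more copies had a median level of 16.8 TPM, and the other 73 a median of 88.5 TPM. Hnrnpa3, with 27 copies, was at 6.07 TPM and Hnrnpa1, with 9, at 7.25 TPM on average over the cultures, whereas Srsf3, with 4, was at 134 TPM. The levels of the genes with copies are uncertain, and their part in the ranking of the classes was not tested.

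Outside these 7 classes, 93 other genes of the spliceosome and its regulation were listed, of which 92 were tested. Their median log2 change was 0.30, 29 lay above in both CTCF-KD cultures and 8 below, and 9 were higher and 1 lower at an unadjusted p under 0.05. Of all genes tested, 19.9% lay above and 16.9% below in this way, and 4.79% were higher and 2.82% lower at that p. Grouped by role after their values had been seen, 8 of the 11 genes of Sm ring assembly (the SMN complex and the methylosome) lay above in both CTCF-KD cultures and none below, with a median change of 1.17, whereas 3 of the 6 SR protein kinase genes lay below and none above, with a median of -0.66. The shares of all genes are again 19.9% above and 16.9% below, and groups formed in this way support no direction. Prmt5, the enzyme that methylates SmB, SmD1 and SmD3 before the ring is built, was at 58.9 and 60.2 TPM in WT1 and WT2 and 145 and 186 TPM in CTCFKD1 and CTCFKD2 (1.45 ± 0.37). Wdr77, its partner, was at 29.9, 84.8, 172 and 205 TPM in the same order (1.88 ± 0.55), and Gemin6 of the SMN complex was at 12.9, 12.9, 40.9 and 82.4 TPM (2.09 ± 0.61). In contrast, the kinase genes Clk4 (183, 190, 90.8 and 103 TPM) and Srpk1 (175, 187, 110 and 127 TPM) and the SR-like factor gene Rbm39 (254, 377, 141 and 247 TPM) were lower in both CTCF-KD cultures. None of these passed the threshold in the test on mean TPM (limma, adjusted p = 0.585 for Prmt5), and on the cell-averaged log2 scale Prmt5 did (adjusted p = 0.0468, with a range of 0.0468 to 0.822 over its alternatives), while Srpk1 there was at an adjusted p of 0.933.

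A gene can also differ in the share of cells in which it is found. WT1 cells had a median of 60.5 of the 79 genes detected and WT2 cells 59, while CTCFKD1 and CTCFKD2 cells had 70 and 64.5. With every cell thinned to 80000 reads, which left out 1 CTCFKD2 cell, the medians were 52.5, 53, 65 and 63. The difference in the share of cells, CTCF-KD minus WT, had a median of 8.70 percentage points over the 79 genes and 7.25 over all genes in 5 or more cells, and 10.7 against 8.24 after thinning. Without the culture labelled CTCFKD2 it was 12.8 points, against 10.1 for all genes. In the WT cultures, cells with more genes detected had more members detected. Within cultures, the number of members detected and the number of genes detected had a Pearson r of 0.866, 0.834, 0.702 and 0.798 over 24, 23, 24 and 24 cells, and a Spearman rho of 0.907, 0.850, 0.337 and 0.632, each pair of values from the same library and depth. Without the 2 cells of each culture farthest from its median number of genes, r was 0.856, 0.807, 0.138 and 0.527, so the relation in CTCFKD1 rested on 2 cells, which had 4427 and 4563 genes.

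After thinning, the share was higher in both CTCF-KD cultures than in both WT cultures for 44 of the 79 genes (55.7%), beside 42.3% of all genes, and lower in both for 1, beside 4.51%. That gene was Prpf4b, found in 75% and 78.3% of WT cells and 70.8% and 65.2% of CTCF-KD cells. The Lsm class stood at 11 of 13 and the Hnrnp class at 7 of 20. Lsm1 was found, after thinning, in 45.8% and 43.5% of WT cells and 95.8% and 91.3% of CTCF-KD cells. Sf3b4 was found in 45.8% and 39.1% against 95.8% and 82.6%, and Prpf19 in 8.33% and 8.70% against 75% and 39.1%. Sf3b1, Srsf2 and 9 other members were found in every kept cell, so detection could not change for them.

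**Figure D4:**
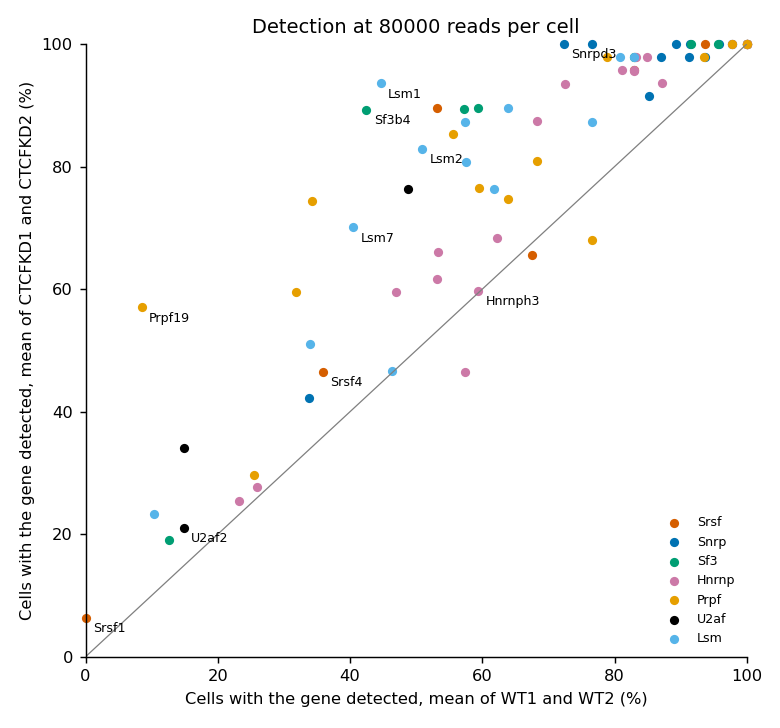
Each point is 1 of the 79 genes, with the share of cells in which it was found at 80000 reads per cell, as the mean of the 2 WT cultures (x axis, percent) and of the 2 CTCF-KD cultures (y axis, percent), and the line marks equal shares. Most genes lie above the line, with Prpf19, Lsm1 and Sf3b4 farthest from it.

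Cell-to-cell variation was measured as the coefficient of variation (CV), taken as the SD of log2(TPM + 1) divided by its mean, after the cells of both cultures of a condition had been put together. For the 76 members with a mean log2(TPM + 1) above 1, the median CV was 0.587 in WT cells and 0.355 in CTCF-KD cells, and 68 of 76 (89.5%) were lower in CTCF-KD cells, beside 81.5% of all 7843 genes measured. The median difference was -0.20 for the members and -0.22 for all genes, with -0.22 for the members in experiment 1 and -0.12 in experiment 2. Against the running median of genes with the same mean level, the difference was 0.004 for the members and -0.002 for all genes, and of the 68 members with a lower CV in CTCF-KD cells, 61 had a higher and 7 a lower mean log2(TPM + 1) there.

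A gene was counted as changed in variation when its CV difference was above 0.13 or below -0.69, the limits that lie 1 SD on either side of the average over all genes. Only a gene with a CV above 0.69 in WT cells can pass the lower limit. The median CV in WT cells was 0.587 for the members and 1.07 for all genes. Shares of decreased genes are therefore not on equal terms for the members and for all genes. By this rule 4 of 76 members decreased (5.26%), beside 11.3% of all genes, and 1 increased (1.32%), beside 7.68%. The 4 were Prpf19 (CV 3.02 in WT and 1.02 in CTCF-KD cells), Lsm1 (1.13 and 0.36), Prpf31 (1.36 and 0.65) and Lsm7 (1.08 and 0.39), all of which were found in more CTCF-KD cells. Against the running median at the same mean level, the difference was 0.16 for Prpf19, -0.10 for Lsm1, -0.061 for Prpf31 and -0.015 for Lsm7. Prpf18 increased, from 1.34 to 1.53. Without the culture labelled CTCFKD2, 2 members decreased and 0 increased.

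Among the abundant members, the CV of Snrpb was 0.29 and 0.47 in WT1 and WT2 and 0.07 and 0.10 in CTCFKD1 and CTCFKD2. Snrpd3 was at 0.53 and 0.46 against 0.08 and 0.11. In both genes a group of WT cells with few or no reads, seen in the plot of single cells, was reduced or absent in the CTCF-KD cultures. Sf3b1 had a CV of 0.10 and 0.09 in WT and 0.09 and 0.09 in CTCF-KD cells at its lower level. Snrpe and Snrpg both had a CV of 0.235 in CTCFKD2, where each was at 0 in 1 of 24 cells, and of 0.07 in CTCFKD1. Without that cell the CV in CTCFKD2 was 0.097 for Snrpe and 0.096 for Snrpg.

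**Figure D5:**
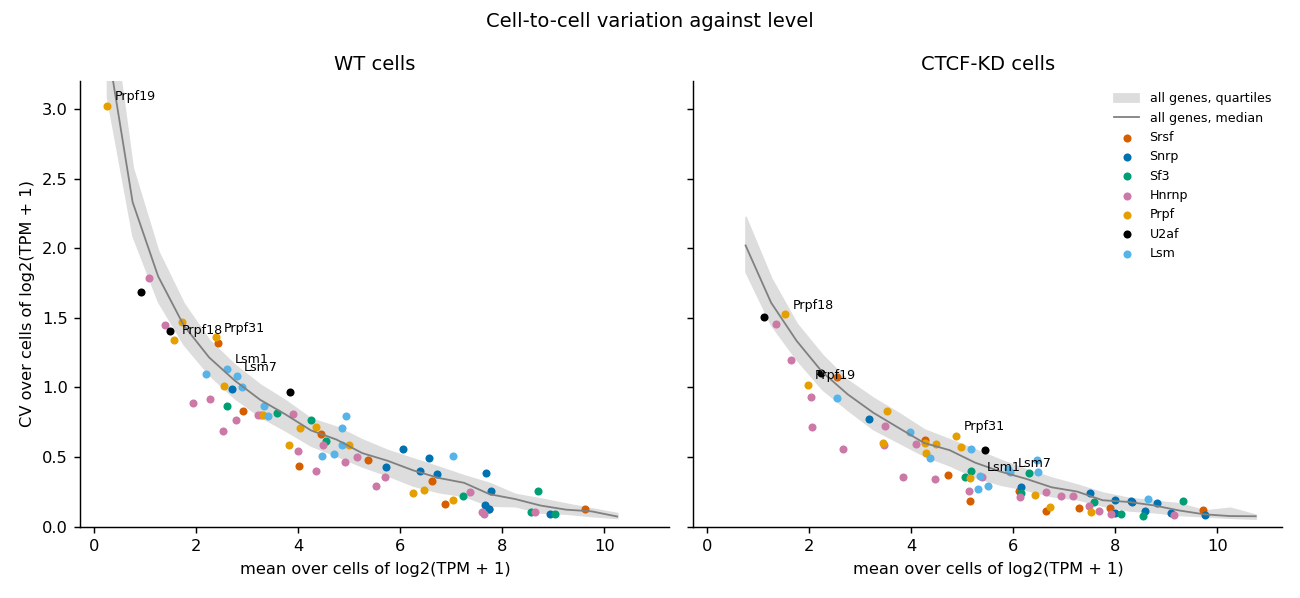
CV over cells (y axis) against the cell-averaged log2(TPM + 1) (x axis) in WT cells (left) and CTCF-KD cells (right), with the members coloured by class and the median and quartiles of all genes in grey. The members follow the grey curve in both conditions, with Prpf19 moving from a CV of 3.02 to 1.02 as its mean rises.

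The levels of all 79 genes summed to 9668 ± 1822 TPM per cell in WT1, 12612 ± 2061 in WT2, 12858 ± 1741 in CTCFKD1 and 14870 ± 2363 in CTCFKD2. WT2 and CTCFKD1 were nearly equal, so the sum was ordered by experiment and by knockdown alike, and of the class sums only those of Snrp and Lsm were higher in both CTCF-KD cultures than in either WT culture. Over cells, the sum went with the number of genes detected in WT1 and WT2 (Pearson r of 0.455 and 0.548, Spearman rho of 0.546 and 0.546), and the values in CTCFKD1 and CTCFKD2 were 0.050 and -0.11 (rho of -0.14 and -0.021). Without the same 2 cells of each culture, r was 0.492, 0.588, -0.27 and 0.204. By level, the 22 members above 200 TPM had a median change of 0.29, beside 0.02 for all 919 genes in that range, and the 28 between 50 and 200 TPM had 0.23, beside 0.12 for 2305 genes. The 20 between 10 and 50 TPM had 0.41, beside -0.03 for 4196 genes, and the 9 under 10 TPM had 0.32, beside 0.06 for 4560 genes.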

How the data were processed

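Single EL4 cells were prepared with the Fluidigm C1 system. The authors aligned reads to GRCm38 (STAR), counted those that mapped uniquely over RefSeq genes (HTSeq) and deposited TPM for 96 cells, the unit used here. Their filter of 3000 genes per cell was not in the table and was applied here. Whole reads were recovered from the TPM steps (100% of 504605 values within 0.001 of a whole number) and used for depth and thinning only, as TPM allows no count model. In a simulation over 12738 genes 99.8% of values were returned. Levels were compared with limma 3.58.1 (R 4.3.3, trend) on log2(mean TPM + 1) of 4 cultures, with Benjamini-Hochberg adjustment over 11980 genes whose log2(TPM + 1) exceeded 1 in 2 or more cells. The TPM total of a cell is fixed, so a rise of some genes lowers others. Exact permutation of 2 against 2 cultures cannot give a p below 0.333, so none is printed.

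The culture number gives the experiment in the study's methods and so pairs the samples (correlation of deviations 0.275 over 7843 genes). Members and lists were chosen with earlier results of these data known. Named genes are Ctcf, the 12 highest and 8 lowest limma statistics, the 2 most abundant of each class, the 3 largest rises and falls in CV, genes chosen by role, and 3 highest and 3 lowest other pathway genes. A further gene that meets this rule was left out and is not reported here. Coordinates and overlaps are from GENCODE M21, copies from BLAST 2.17.0+. Reads carry no molecular identifiers, so limits from counts cover counting error only. Alternatives covered the scale of the mean, pseudocount, filters, centring, pairing, thinning and left-out cultures.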

Additional observations from a re-analysis of the deposited data

Results flagged for a closer look

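The 2 experiments moved in opposite directions for 8 of the named members and for Ctcf, and these differences were not tested. The log2 changes in experiments 1 and 2 were 1.20 and -0.63 for Lsm10, -0.69 and 1.19 for Hnrnpll, 0.82 and -0.22 for Prpf18, 0.12 and -1.13 for Prpf4b, and -0.13 and 0.65 for U2af1l4. They were 0.43 and -0.13 for U2af2, 0.27 and -0.076 for Srsf2, and 0.16 and -0.089 for Snrpe. For Ctcf they were -1.85 and 0.27.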

How the results depend on the processing

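On the cell-averaged log2 scale, 21 members were higher and 0 lower at an unadjusted p under 0.05, 2 lay below in both CTCF-KD cultures, and the median change was 0.59 (all genes 0.23). There the sign turned for Prpf8 (0.15), Srsf4 (0.13), Snrpe (-0.10) and Prpf18 (-0.036), 0 members passed the threshold in limma (smallest adjusted p = 0.0501, Lsm7, whose alternatives ranged to 0.867), and 44 genes of all were called higher and 2 lower. With the replicate block, which pairs the cultures of an experiment, 16 members were higher at an unadjusted p under 0.05, and no call changed. Thinning turned Hnrnpll (-0.019). For CV, linear TPM gave 5 increased, a pseudocount of 10 gave 5 increased and 18 decreased with a median of -0.047, and the distance from the running median gave 4 increased and a median of 0.0041. Of 557 alternatives for 43 named genes, 530 kept direction and call, 26 turned the sign, and 1 passed the threshold (Prmt5). The causes were not tested.

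Leaving out 1 culture gave 2 to 7 members higher and 0 to 1 lower at an unadjusted p under 0.05. By construction, as one arm has 1 culture, 36 to 52 lay above and 9 to 20 below. The median change was 0.16 to 0.50, namely 0.17 without WT1, 0.50 without WT2, 0.50 without CTCFKD1 and 0.16 without CTCFKD2. The class medians ranged from -0.075 to 0.38 (Srsf), -0.33 to 0.63 (Hnrnp) and -0.038 to 0.52 (U2af). CV gave 0 to 5 increased (5 without CTCFKD1) and 2 to 3 decreased. The change of single genes turned its sign in Srsf2 (-0.66 to 0.85), Snrpe (-0.15 to 0.22), Hnrnpa2b1 (-0.050 to 0.93), Lsm10 (-0.24 to 0.82), Srsf3 (-0.97 to 0.14), Prpf4b (-1.08 to 0.072), Hnrnph1 (-1.08 to 0.36), Sf3b5 (-0.14 to 0.92), Prpf38b (-0.18 to 0.11), U2af1l4 (-0.43 to 0.95), Hnrnpll (-0.30 to 0.81), Prpf18 (-0.088 to 0.69) and U2af2 (-0.22 to 0.52). With 2 cultures per condition, a lone culture is assumed to vary like the others.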
